A study of Mus musculus with 6 samples.

Results

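The collagen genes of the mouse forebrain were described across 6 RNA-Seq libraries, 3 from mice given normal chow (NCD) and 3 from mice given a high-fat diet (HFD). A row of the deposited counts was taken as a collagen when its symbol had the form Col, number, a, number, which found 44 of the 23282 rows, and each was placed in a structural class by the protein it encodes. These were 11 fibrillar chains, 6 chains of type IV, 4 transmembrane collagens, 9 fibril-associated collagens with interrupted helices (FACITs), 6 chains of type VI, 2 multiplexins, 3 short-chain network collagens and 3 others. The mice were wild-type (WT) C57BL/6J males of 8 to 10 weeks, fed the NCD or the HFD with 60 kcal% fat for 10 days, with no other treatment in either group. RNA came from a forebrain hemisphere without olfactory bulb and cerebellum, and the hemisphere was taken whole. The labels do not say whether each library is a separate mouse, so p-values measure the spread between these libraries, which may be technical.

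Collagens are secreted or membrane-bound proteins built of 3 chains wound into a helix, which needs a glycine at the first place of each triplet of amino acids. Fibrillar collagens form cross-striated fibers, with types I and III as their bulk and types V and XI as minor chains that start fibrils and limit their width. Type IV forms the sheet of basement membranes, FACITs sit on fibril surfaces, and transmembrane collagens are anchored in the plasma membrane by one end. Brain parenchyma holds little fibrillar collagen, which lies mainly in the meninges and around vessels, while the basement membrane of brain vessels is rich in type IV.

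The difference between the classes can be read from their coding exons. One whole exon each is shown for 3 fibrillar chains, taken from their longest run of the repeat. For type IV and transmembrane chains only a part of 1 exon is shown, around a break of the repeat. Glycine codons (GGN) are in capitals, the coding strand is given, and exons are numbered 5′ to 3′ in the GENCODE vM21 model on GRCm38 (mm10). The whole exons are exon 8 of Col1a2 (chr6:4515481-4515534, plus strand), exon 15 of Col5a1 (chr2:27965251-27965304, plus strand) and exon 15 of Col11a1 (chr3:114108281-114108334, plus strand). The parts lie within exon 9 of Col4a1 (chr8:11244504-11244569, minus strand), exon 12 of Col4a2 (chr8:11406813-11406854, plus strand) and exon 20 of Col25a1 (chr3:130549193-130549234, plus strand). Their 66, 42 and 42 bases are not exon lengths.
Col1a2: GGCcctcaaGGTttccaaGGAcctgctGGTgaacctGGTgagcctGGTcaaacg
Col5a1: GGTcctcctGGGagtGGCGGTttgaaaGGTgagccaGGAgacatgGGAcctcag
Col11a1: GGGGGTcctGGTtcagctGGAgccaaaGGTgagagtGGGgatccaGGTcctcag
Col4a1: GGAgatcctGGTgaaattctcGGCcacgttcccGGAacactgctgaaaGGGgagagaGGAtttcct
Col4a2: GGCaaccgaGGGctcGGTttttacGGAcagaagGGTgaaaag
Col25a1: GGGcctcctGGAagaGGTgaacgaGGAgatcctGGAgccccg

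The 3 whole exons are each 54 bases long, or 6 triplets of 9 bases. Among the internal coding exons of the 11 fibrillar genes, 305 of 627 (48.6%) had exactly this length, against 12 of 284 (4.23%) in type IV genes and 14 of 149 (9.40%) in transmembrane genes. In all other protein-coding genes it was 674 of 155204 (0.434%). A length that is a multiple of 9 was held by 83.9% of the fibrillar exons, 47.2% of the type IV exons and 71.1% of the transmembrane exons, against 13.6% in the other genes. The longest run of triplets that start with glycine had a median of 338 triplets over the fibrillar genes and ranged from 216 to 344, with 2 to 3 runs in each gene. In type IV genes the longest run was 39 to 66 triplets and the repeat was split into 22 to 27 runs of at least 5 triplets, and in transmembrane genes it was 40 to 55 triplets in 5 to 13 runs. These figures come from the reference genes and use no counts.

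**Figure D1:**
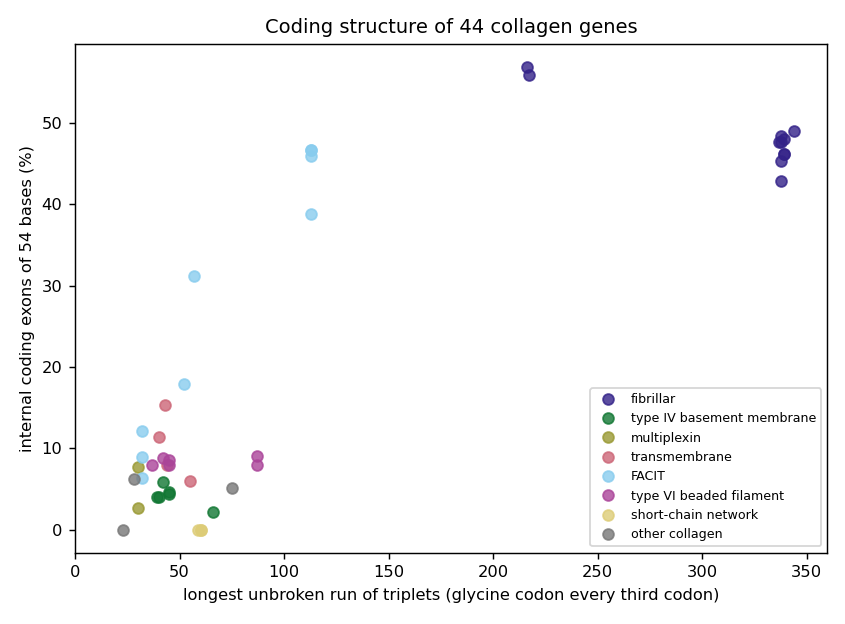
Each point is 1 collagen gene of the GENCODE vM21 annotation, with its class in color, placed by the longest unbroken run of glycine-first triplets (triplets) and the percentage of its internal coding exons that are 54 bases long. The 11 fibrillar genes lie at runs of 216 to 344 triplets, to the right of every other class.

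The libraries were made with QuantSeq, which reads the 3′ end of each poly(A) transcript, so levels are given in CPM (counts scaled to the TMM-adjusted library size), which were not divided by gene length, and are compared between libraries, not between genes. The total count was between 6842785 and 9689372 per library, and a count of 3, taken as the floor, was worth 0.316 to 0.432 CPM, covering counting error only. All 10 markers of forebrain neurons passed the filter on low counts, with a summed level of 6203 to 7146 CPM over the libraries. One library stood apart. In HFD replicate 3 the 8 pituitary markers summed to 1277 CPM, mostly from the growth hormone gene Gh, against 4.75 to 13.6 CPM in the other 5 libraries. Values without this library stand beside many of the results.

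Collagen reads were few. In the order of the replicate numbers, which is kept throughout, they numbered 1914, 2369 and 2558 for the NCD and 1809, 2263 and 1214 for the HFD, or 0.016% to 0.0264% of each library. Of the 44 rows, 27 passed the filter, with a mean level over the 6 libraries of 1.23 to 45.5 CPM, and 17 did not, with 0.0546 to 1.07 CPM and 3 to 53 counts in all. The summed collagen level was 236, 256 and 269 CPM on the NCD and 260, 247 and 167 CPM on the HFD, or 254 ± 16.7 and 225 ± 50.6 CPM (SD, n = 3). The HFD libraries overlapped with the NCD libraries, and replicate 3 alone lay under the NCD range. The log2 ratio of the HFD mean to the NCD mean was -0.17, and without HFD replicate 3 it was 0.00048. In a tissue sample, fewer cells of a type and less RNA per cell cannot be told apart.

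**Figure D2:**
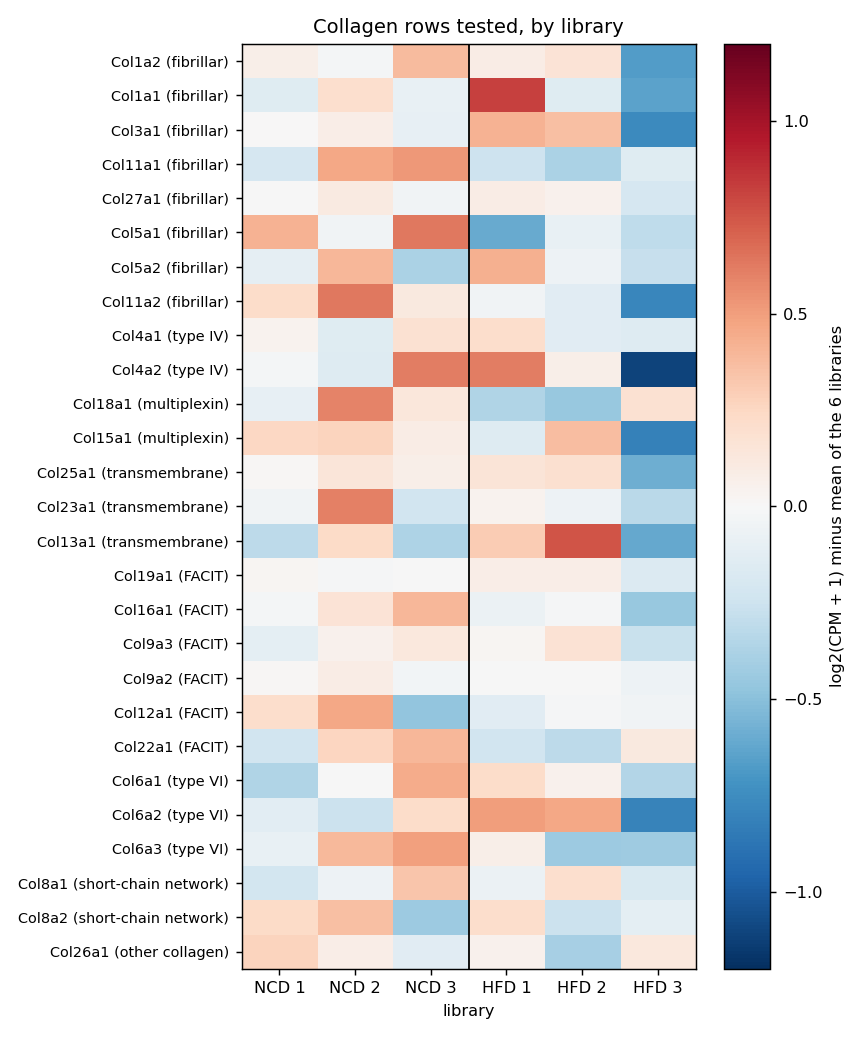
Each row is 1 of the collagens tested and each column 1 library, and the color gives log2(CPM + 1) minus the row's mean over the 6 libraries, with rows grouped by class. HFD replicate 3 was the lowest library in 16 of the 27 rows.

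Low values in HFD replicate 3 ran through the collagens. It was the lowest of the 6 libraries in 16 of 27 collagens (59.3%) against 27.1% of all rows tested, HFD replicate 2 in 5, NCD replicate 3 in 3, NCD replicate 1 in 2 and HFD replicate 1 in 1. Its summed collagen level was 0.658 times the mean of the other HFD libraries. The same quotient was 0.833 for 15 markers of meningeal and perivascular fibroblasts, 0.801 for 12 endothelial markers and 0.803 for 11 markers of pericytes and smooth muscle. It was 1.01 for 10 markers of choroid plexus epithelium, 0.905 for the neuronal markers and 0.880 for liver plasma proteins. Markers of bone and cartilage were at 0.583, lower than the collagens, though on only 40 counts in HFD replicate 3. The part of these cell types, and of the pituitary RNA, in the collagen level was not tested.

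Fibrillar chains held 29.2% to 35.0% of the collagen reads in every library. Their summed level was 79.6, 84.0 and 94.4 CPM on the NCD and 86.7, 80.9 and 48.7 CPM on the HFD, again with replicate 3 alone under the NCD range. Type IV chains held 9.79% to 14.0%, with 27.0, 25.0 and 34.4 CPM on the NCD and 36.6, 27.2 and 18.4 CPM on the HFD. Transmembrane collagens held 20.8% to 26.3%, with 56.7, 67.0 and 55.9 CPM against 62.5, 65.0 and 37.9 CPM. In each of these classes HFD replicates 1 and 2 lay within or above the NCD range. The ratio of the fibrillar to the type IV sum was 3.01 ± 0.31 on the NCD and 2.66 ± 0.30 on the HFD, and that of the fibrillar to the transmembrane sum was 1.45 ± 0.22 and 1.30 ± 0.074 (SD, n = 3). The spreads of both ratios overlapped between the diets.

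**Figure D3:**
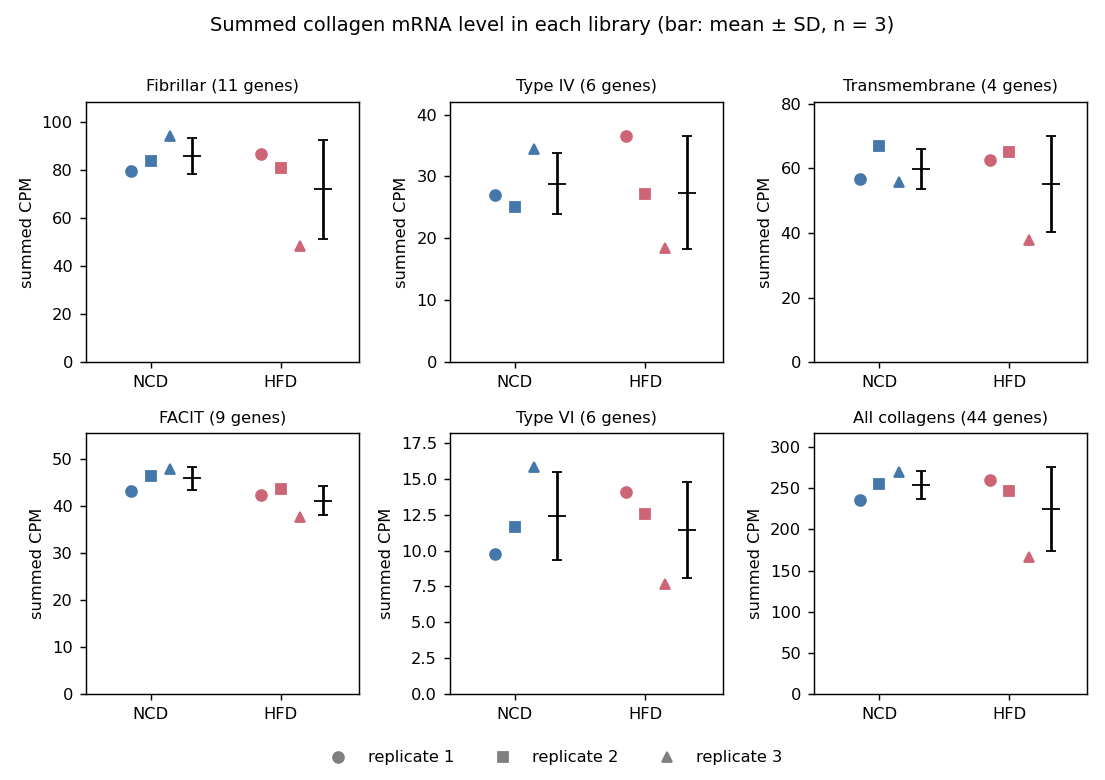
Summed CPM of the collagen classes (vertical axes from 0), with points for the 3 NCD and 3 HFD libraries and bars for the mean ± SD of each diet. The lowest fibrillar, type IV and transmembrane sums were those of HFD replicate 3, at 48.7, 18.4 and 37.9 CPM.

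Between the diets, 2 of the 27 collagens tested were lower on the HFD at an unadjusted p under 0.05 and 0 were higher, where 3.68% of all 13771 rows tested were under 0.05, 1.98% being lower and 1.71% higher. After Benjamini-Hochberg adjustment over all rows, edgeR's quasi-likelihood test called 0 collagens and 0% of the rows, and the smallest adjusted p of a collagen was 0.979. DESeq2 gave the same counts, with 2 lower at an unadjusted p and 0 called, and limma after quantile normalization gave 3 lower and 0 called. The log2 fold change was under 0 in 21 of 27 collagens, against 50.6% of all rows, and the median was -0.18, against -0.0024. Without HFD replicate 3, 31 collagens passed the filter, with 15 above 0 and 16 below and a median of -0.03, and the same 2 genes were under 0.05. Without HFD replicate 1 the median was -0.32 and the genes under 0.05 were Col11a2 and Col6a3, while leaving out NCD replicate 3 or HFD replicate 2 left 1 gene, Col11a2 or Col5a1. Without NCD replicate 1 they were Col5a1, Col11a1 and Col6a3. Without NCD replicate 2 they were Col5a1 and Col7a1, a row under the filter with all libraries in. Of the 27 collagens tested, the HFD libraries were all below the NCD libraries in 2, Col5a1 and Col11a2, and all above in 0. Of all rows tested, 4.49% were below and 4.31% above, or 8.81% in either direction. Under the filter, Col20a1 was also below, with 7, 4 and 4 counts against 2, 0 and 2.

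**Figure D4:**
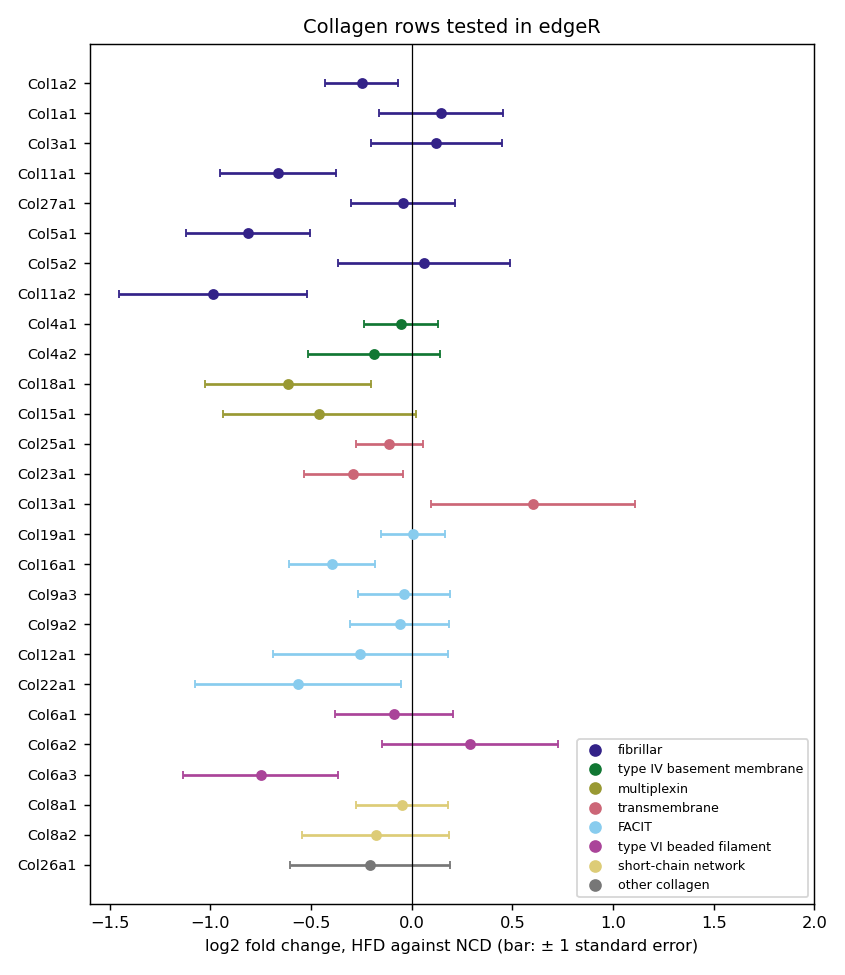
Points give the log2 fold change of HFD against NCD for each collagen tested, bars ± 1 standard error, and colors the class. Col5a1, Col11a1 and Col11a2 lie at -0.81, -0.66 and -0.99, and most other bars cross 0.

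The collagens under 0.05 were minor fibrillar chains. Col5a1, the main chain of type V, had 51, 40 and 71 counts in the NCD libraries against 18, 38 and 25 in the HFD libraries. Its level was 6.30, 4.31 and 7.48 CPM against 2.59, 4.15 and 3.44 CPM. The groups did not overlap, though NCD replicate 2 and HFD replicate 2 were close. The log2 fold change was -0.81 (SE 0.31, unadjusted p = 0.0175, adjusted p = 0.979 by edgeR's quasi-likelihood test). In the same edgeR test it was -0.81 without HFD replicate 3 (unadjusted p = 0.0315), -0.62 without NCD replicate 3 (unadjusted p = 0.0884) and -0.66 without HFD replicate 1 (unadjusted p = 0.0669), so that the call was lost without either of the last 2 libraries.

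Col11a1, a chain of type XI, had 35, 69 and 74 counts in the NCD libraries against 29, 34 and 33 in the HFD libraries. Its level was 4.32, 7.44 and 7.80 CPM against 4.17, 3.72 and 4.54 CPM. NCD replicate 1 lay among the HFD libraries, so the groups overlapped. The log2 fold change was -0.66 (SE 0.29, unadjusted p = 0.0343, adjusted p = 0.979 by edgeR's quasi-likelihood test). The edgeR p was 0.037 without HFD replicate 3, 0.109 without NCD replicate 2, 0.127 without NCD replicate 3, 0.0595 without HFD replicate 1 and 0.1 without HFD replicate 2, so that only the first of these kept the call.

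Col11a2, which encodes a further type XI chain, had 2.10, 3.13 and 1.9 CPM on the NCD and 1.58, 1.42 and 0.55 CPM on the HFD. Every HFD library was below every NCD library, but the values rest on 4 to 29 counts. The log2 fold change was -0.99 (SE 0.47, unadjusted p = 0.051 in edgeR). Col5a2, the partner of the Col5a1 chain in type V, was at 1.97, 3.24 and 1.47 CPM against 3.31, 2.08 and 1.65 CPM, with a log2 fold change of 0.06 (SE 0.43). Col5a3, the remaining type V chain, was under the filter with 7, 10 and 15 counts against 2, 10 and 0. Its log2 fold change in the fit without a filter was -1.24 (edgeR unadjusted p = 0.109).

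Summed over these 5 genes, a grouping made after the values were seen and therefore not tested, types V and XI were at 15.6, 19.2 and 20.2 CPM on the NCD and 11.9, 12.5 and 10.2 CPM on the HFD, or 18.3 ± 2.46 and 11.5 ± 1.2 CPM (SD, n = 3). The log2 ratio was -0.67, and -0.59 without HFD replicate 3. The 3 chains of types I and III summed to 57.3, 57.3 and 68.0 CPM against 68.4, 62.0 and 34.0 CPM, with a log2 ratio of -0.15, and 0.099 without HFD replicate 3. In the sum of types V and XI each HFD library was low, while in that of types I and III only replicate 3 was below the NCD range.

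**Figure D5:**
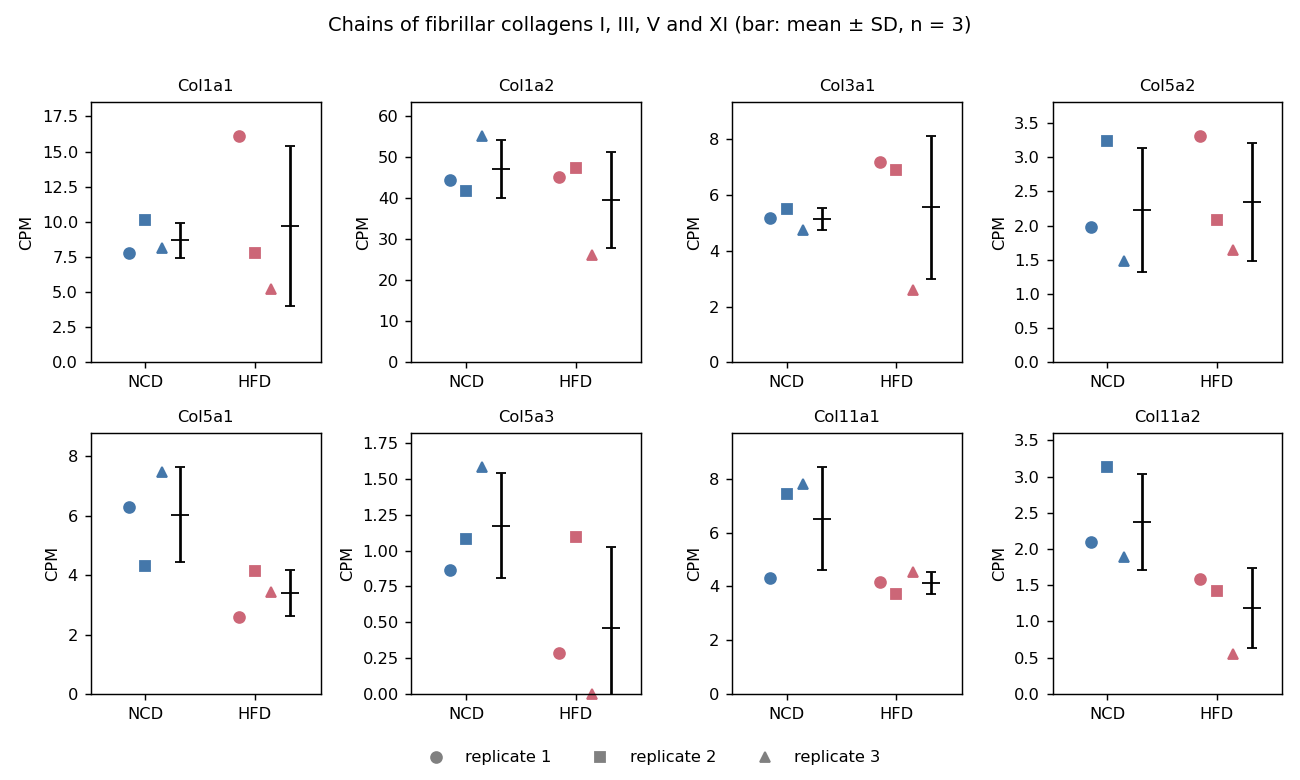
CPM of the chains of types I, III, V and XI in each library (points, vertical axes from 0), with the mean ± SD of the 3 libraries of each diet. In Col5a1 and Col11a2 all HFD points are under all NCD points, and in Col1a1, Col1a2, Col3a1, Col5a2, Col5a3 and Col11a1 the diets overlap.

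The chains of types I and III differed less than their spread. Col1a2, which encodes the second chain type of collagen I, was at 44.3, 41.6 and 55.1 CPM on the NCD and 45.1, 47.3 and 26.1 CPM on the HFD. Its log2 fold change was -0.25 (SE 0.18), and -0.03 without HFD replicate 3. Col1a1, the other chain of collagen I, was at 7.78, 10.1 and 8.11 CPM against 16.1, 7.76 and 5.22 CPM, and the HFD libraries were on both sides of the NCD range. Its log2 fold change was 0.15 (SE 0.31), and -0.41 without HFD replicate 1. Col3a1, the chain of collagen III, was at 5.18, 5.50 and 4.74 CPM against 7.20, 6.88 and 2.61 CPM, with a log2 fold change of 0.12 (SE 0.33) that went below 0 without HFD replicate 1 or 2. Within a library the counts of Col1a2 were 5.70, 4.11 and 6.79 times those of Col1a1 on the NCD and 2.79, 6.10 and 5.0 times on the HFD, so the 2 chains did not keep one ratio. Of the other fibrillar rows, Col27a1 was tested with a log2 fold change of -0.04, and Col2a1 and Col24a1, at 0.531 and 0.542 CPM on average, were under the filter.

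Since Col5a1 and Col11a1 were the collagens under 0.05, the 250 bases before their RefSeq start sites (GRCm38.p6) are shown, at chr2:27886175-27886424 and chr3:114030290-114030539, both on the plus strand. Capitals mark the GC box GGGCGG and the CCAAT box CCAAT on either strand, so that CCGCCC and ATTGG are the reverse matches.
Col5a1: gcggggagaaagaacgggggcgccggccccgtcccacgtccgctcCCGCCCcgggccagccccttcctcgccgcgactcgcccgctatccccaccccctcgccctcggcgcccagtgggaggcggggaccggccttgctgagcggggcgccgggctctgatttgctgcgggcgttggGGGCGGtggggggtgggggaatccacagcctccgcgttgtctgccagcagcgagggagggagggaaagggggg
Col11a1: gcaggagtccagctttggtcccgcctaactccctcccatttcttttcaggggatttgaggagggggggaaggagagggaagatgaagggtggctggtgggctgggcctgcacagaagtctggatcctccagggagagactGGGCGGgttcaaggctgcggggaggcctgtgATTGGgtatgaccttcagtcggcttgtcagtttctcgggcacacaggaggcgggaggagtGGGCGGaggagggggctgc

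Both windows held 2 GC boxes, and Col11a1 also held 1 CCAAT box where Col5a1 held 0. Their GC content was 76.4% and 62.4%, against a median of 59.6% over the 35 collagens matched in the promoter table and 52% over all 27025 promoters. A GC box stood in 21 of 35 collagen windows (60%) against 32.9% of all windows of this length, and a CCAAT box in 12 of 35 (34.3%) against 34.5%. TATAAA on the coding strand stood in 5 of 35 (14.3%) against 8.12%. These matches describe the letters in the windows and not sites bound in this tissue.

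Among the type IV genes, Col4a1 and Col4a2 encode the chains of the network found in nearly all basement membranes. They lie head to head on chromosome 8, where the RefSeq starts at position 11312826 (minus strand) and 11312805 (plus strand) overlap by 22 bases. Col4a1 was at 13.6, 11.8 and 15.1 CPM on the NCD and 15.4, 11.9 and 11.7 CPM on the HFD, and the groups overlapped. Its log2 fold change was -0.06 (SE 0.18). Col4a2 was at 10.5, 9.49 and 16.9 CPM against 16.8, 11.3 and 4.40 CPM, with a log2 fold change of -0.19 (SE 0.33), and 0.18 without HFD replicate 3. The counts of Col4a1 were 0.894 to 1.29 times those of Col4a2 in the 3 NCD libraries, 0.915 and 1.06 times in HFD replicates 1 and 2, and 2.66 times in HFD replicate 3. In that library the 2 genes parted, with Col4a1 close to the value of HFD replicate 2 and Col4a2 far below it. Col4a5, a chain of specialised basement membranes, was under the filter with 7, 10 and 7 counts against 12, 11 and 6. Col4a3, Col4a4 and Col4a6 were likewise under it, at 0.543 to 0.92 CPM on average.

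The multiplexins, basement membrane collagens whose C-terminal ends can be released as inhibitors of vessel growth, summed to 4.32, 6.26 and 4.53 CPM on the NCD and 3.02, 3.93 and 3.30 CPM on the HFD. Each HFD sum was below each NCD sum, on 21 to 58 counts per library. Col18a1, the source of endostatin, was at 2.10, 3.99 and 2.63 CPM against 1.58, 1.42 and 2.75 CPM, and its groups overlapped. Its log2 fold change was -0.62 (SE 0.41), with -0.32 without NCD replicate 2 and -0.96 without HFD replicate 3. Col15a1 was at 2.22, 2.27 and 1.90 CPM against 1.44, 2.51 and 0.55 CPM, also with overlapping groups. The log2 fold change of Col15a1 was -0.46 (SE 0.48).

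Of the transmembrane collagens, Col25a1 encodes a collagen of neurons known for binding amyloid in plaques and for its part in motor innervation. It was at 45.2, 49.7 and 47.0 CPM on the NCD and 50.1, 51.5 and 29.6 CPM on the HFD. HFD replicates 1 and 2 were above all NCD libraries and replicate 3 was below them. This gave a log2 fold change of -0.11 (SE 0.17), and of 0.10 without HFD replicate 3. Col23a1 was at 8.89, 14.5 and 7.69 CPM against 9.50, 8.74 and 7.15 CPM, with a log2 fold change of -0.29 (SE 0.24), and 0.03 without NCD replicate 2. Col13a1, a collagen of cell contacts and the neuromuscular junction, was at 1.23, 2.27 and 1.16 CPM against 2.45, 3.72 and 0.825 CPM, with a log2 fold change of 0.60 (SE 0.51). This ran from 0.062 without HFD replicate 2 to 0.99 (edgeR unadjusted p = 0.0526) without HFD replicate 3. Col17a1, the collagen of hemidesmosomes, was under the filter at 0.657 CPM on average.

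Among the FACITs, Col19a1, which hippocampal interneurons are known to express, differed little between the libraries. Its level was 16.2, 15.7 and 15.9 CPM on the NCD and 16.8, 16.9 and 14.2 CPM on the HFD. The fitted log2 fold change of 0.0053 (SE 0.16) became -0.013 with library size as the only scaling. Col16a1, a collagen of fibroblasts and smooth muscle, was at 9.26, 10.7 and 12.7 CPM against 8.93, 9.29 and 6.60 CPM. Only HFD replicate 2 lay within the NCD range, at its low end, and the log2 fold change was -0.40 (SE 0.21, edgeR unadjusted p = 0.0812), and -0.26 without HFD replicate 3. Col9a3, a chain of cartilage collagen IX, was at 6.67, 7.66 and 8.11 CPM against 7.49, 8.41 and 5.91 CPM, and its last exon overlaps Tcfl5 on the opposite strand, so reads of the 2 genes cannot be told apart where counting ignored strand. The FACIT sum was 43.2, 46.4 and 47.8 CPM on the NCD and 42.3, 43.5 and 37.5 CPM on the HFD. The median log2 fold change of the 6 FACITs tested was -0.16.

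The 3 chains of the main type VI collagen, which forms beaded filaments around cells, did not move together. Col6a1 was at 4.07, 5.50 and 7.90 CPM on the NCD and 6.62, 5.79 and 4.12 CPM on the HFD, with overlapping groups. Col6a2 was at 2.35, 2.05 and 3.27 CPM against 4.17, 4.04 and 1.10 CPM. HFD replicates 1 and 2 were above and replicate 3 below every NCD value. The fitted log2 fold change was 0.29 (SE 0.44), with 0.68 (edgeR unadjusted p = 0.0943) without HFD replicate 3 and 0.034 without HFD replicate 2. Col6a3 was at 2.35, 3.67 and 4.0 CPM against 2.74, 1.64 and 1.65 CPM, with a log2 fold change of -0.75 (SE 0.38, edgeR unadjusted p = 0.0678). That p was 0.0391 without NCD replicate 1 and 0.042 without HFD replicate 1, and 0.151 without NCD replicate 2, 0.186 without NCD replicate 3, 0.196 without HFD replicate 2 and 0.166 without HFD replicate 3.

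Col8a1, a short-chain collagen of endothelial matrix, was at 6.91, 7.87 and 10.6 CPM on the NCD and 7.77, 9.62 and 7.15 CPM on the HFD. Col26a1, the remaining tested row outside these classes, was at 2.84, 2.37 and 1.9 CPM against 2.30, 1.42 and 2.47 CPM. Both overlapped between the diets, with log2 fold changes of -0.05 (SE 0.23) and -0.21 (SE 0.40). Among the 17 rows under the filter, 0 had an unadjusted p under 0.05 in the edgeR fit without a filter, where 4.76% of 18936 rows did. The smallest edgeR p of the 17 was 0.0857, for Col7a1. Col28a1 had 2, 0 and 3 counts in the NCD libraries and 0 in each HFD library, and Col6a6 had 3 counts in HFD replicate 2 and 0 elsewhere, so differences in them were not detectable at this depth.

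Collagen chains are made and used with the help of many partners, of which 87 were listed and 70 passed the filter. At an unadjusted p under 0.05, 3 were lower on the HFD and 0 higher in edgeR's quasi-likelihood test, beside the 1.98% and 1.71% of all rows, and 0 passed adjustment. DESeq2 gave 2 lower and 0 higher and limma after quantile normalization 4 lower and 1 higher, again with 0 after adjustment. All HFD libraries lay below all NCD libraries in 4 of the 70 and above them in 3, beside 4.49% and 4.31% of all rows. The median log2 fold change of the 70 was -0.096, and the direction rested on 1 library. Without HFD replicate 3 the median was 0.03, with 38 genes above 0 and 34 below, over the partners that passed the filter in that fit.

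Pcolce2, an enhancer of the enzyme that cuts the C-terminal propeptide of fibrillar collagens, was at 14.3, 14.9 and 18.1 CPM on the NCD and 11.4, 11.04 and 11.5 CPM on the HFD. Each HFD library was below each NCD library. The log2 fold change was -0.48 (SE 0.17, edgeR unadjusted p = 0.0127), and -0.37 (unadjusted p = 0.0602) without NCD replicate 3. The other partners under 0.05 lost this call without any of several libraries. Adgrg1, a receptor that binds collagen III in the developing cortex, was at 46.4, 61.7 and 49.5 CPM against 47.5, 44.9 and 27.4 CPM, with a log2 fold change of -0.40 (edgeR unadjusted p = 0.037) that was -0.19 (unadjusted p = 0.168) without HFD replicate 3 and -0.26 (unadjusted p = 0.187) without NCD replicate 2. Mmp15, a membrane-bound metalloproteinase, was at 12.1, 12.3 and 10.2 CPM against 9.07, 9.73 and 6.19 CPM, all HFD libraries being lower. Its log2 fold change of -0.46 (edgeR unadjusted p = 0.0445) was -0.29 (unadjusted p = 0.168) without HFD replicate 3, -0.43 (unadjusted p = 0.102) without NCD replicate 1 and -0.41 (unadjusted p = 0.115) without NCD replicate 2.

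By role, the enzymes that hydroxylate and glycosylate collagen had 14 genes tested and a median log2 fold change of 0.04, with P4hb at 0.04 (SE 0.11) and the prolyl isomerase Ppib at 0.20 (SE 0.14). Ppib was at 0.32 (edgeR unadjusted p = 0.0385) without HFD replicate 1 and at 0.072 (unadjusted p = 0.565) without HFD replicate 3. Folding and secretion had 7 tested and a median of -0.07, with Mia3, which loads procollagen into transport carriers, at -0.07 (-0.019 without HFD replicate 3) and Sec23a at -0.03. Propeptide cleavage and crosslinking, the list of Pcolce2, had 8 tested and a median of -0.15, with Bmp1, the propeptide-cutting protease itself, at -0.14 (SE 0.19) and the lysyl oxidase Loxl3 at -0.16 (SE 0.14). Bmp1 ran from -0.016 without NCD replicate 1 to -0.29 without NCD replicate 3, and Loxl3 was at -0.11 without HFD replicate 3. Of the 21 enzymes and carriers that act before secretion, 0 were under 0.05 with all libraries in, beside 3.68% of all rows, too low a share for this 0 to set them apart.

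Outside the cell, fibril-binding proteoglycans and glycoproteins had 9 tested and a median of -0.05, with the calcium-binding Sparc at -0.05 and the proteoglycan Dcn at 0.07. Laminins, nidogens and proteoglycans of basement membranes had 14 tested and a median of -0.11, with 0 under 0.05 beside 3.68% of all rows. Agrin (Agrn) was at -0.28 (SE 0.15) and Lamb1 at -0.12, the latter at -0.027 without HFD replicate 3. Leaving out HFD replicate 1 put Agrn at -0.38, leaving out NCD replicate 3 at -0.14 and leaving out HFD replicate 3 at -0.12. Its edgeR p, 0.0837 with all libraries, was 0.0366 without HFD replicate 1, 0.0384 without NCD replicate 2, 0.0695 without HFD replicate 2, 0.103 without NCD replicate 1, 0.353 without HFD replicate 3 and 0.393 without NCD replicate 3. In HFD replicate 3 the basement membrane list summed to 0.701 times the mean of the other HFD libraries, where the collagen value was 0.658. The same quotient was 0.724 for collagen receptors, 0.7998 for fibril-binding proteins and 0.823 for collagenases and inhibitors. It was 0.903 for cleavage and crosslinking and 0.976 for hydroxylation and glycosylation, and folding and secretion was not below that mean. Over all partners it was 0.841, so the lists differed in how far they were lower in this library. The receptors had 7 tested and a median of -0.20, with the collagen-binding kinase Ddr1 at -0.19 and the integrin chain Itgb1 at -0.20. Ddr1 was at -0.0018 without HFD replicate 3, and Itgb1 at -0.022 without NCD replicate 3. The collagenases and inhibitors had 11 tested and a median of -0.13, with Timp2 at -0.18 and Timp3 at -0.14, and without HFD replicate 3 these 2 inhibitors were at -0.064 and -0.063. Without HFD replicate 3 the list medians were 0.04 for hydroxylation and glycosylation, -0.02 for folding and secretion, 0.0022 for cleavage and crosslinking and 0.10 for fibril-binding proteins. They were 0.04 for the basement membrane list, -0.05 for receptors and -0.05 for collagenases and inhibitors. These medians are over the genes that passed the filter in that fit.

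The cell type markers stood beside these values as follows. The summed fibroblast markers were at 204 to 220 CPM on the NCD and 173 to 208 CPM on the HFD. All 15 were tested and 0 were under 0.05, beside 3.68% of all rows. Lum, Ogn, Fmod, Dcn and Lama1 are in both the fibroblast list and a partner list. Endothelial markers were at 291 to 319 CPM against 269 to 347 CPM, those of pericytes and smooth muscle at 105 to 114 CPM against 101 to 132 CPM, and those of choroid plexus at 1056 to 1325 CPM against 1122 to 1266 CPM. In each of these lists all genes were tested and the diets overlapped. Rgs5 (log2 fold change 0.32) and Kcnj13 (0.59) were higher at an unadjusted p under 0.05 in edgeR, beside 1.71% of all rows. The Rgs5 call was lost in DESeq2, with library size alone, under the replicate block and without NCD replicate 1 or 3. That of Kcnj13 was lost without NCD replicate 1 or HFD replicate 2. Bone and cartilage markers summed to 7.16 to 8.74 CPM against 5.50 to 9.79 CPM, with 2 of 8 above the filter. Liver plasma proteins summed to 307 to 339 CPM against 260 to 306 CPM. Each HFD library was lower, but the groups nearly touched, at 306.9 against 306.3 CPM, and the log2 ratio was -0.17. In edgeR 5 of 6 tested were lower at an unadjusted p under 0.05, beside 1.98% of all rows. This count was 3 under limma after quantile normalization and 3 without NCD replicate 2. The median log2 fold change of the 6 tested was -1.71, with Ahsg at -2.23, Alb at -2.19 and the smallest change at -0.06. The sum, at -0.17, therefore rested mostly on the gene of smallest change and does not describe the other genes of this list. With at least 10 counts in every library, 3 genes of this list remained. The part of these markers in the collagen values was not tested.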

How the data were processed

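QuantSeq 3′ libraries from 3 NCD and 3 HFD forebrain hemispheres were analysed. The authors trimmed adaptors, aligned reads to mm10 (UCSC) with Bowtie2, and counted uniquely and multiply aligned reads per gene with the coverage command of Bedtools. They deposited these counts unnormalized, as whole numbers, and the quantile normalization in the study's methods came later. The annotation and use of strand are not given in the sources used here.

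The counts were fitted in R 4.3.3 with edgeR 4.0.16 (filterByExpr with minimum count 10 and minimum total count 15, TMM scaling, glmQLFit, glmQLFTest, Benjamini-Hochberg over 13771 rows). Rows under the filter were taken from the same fit without one. The 3 against 3 design cannot give an exact permutation p below 0.1, so no such test was added. CPM used TMM-scaled library sizes. Class sums and list medians were described without a test. The standard error is the log2 fold change over the square root of F. The biological coefficient of variation was 0.126, and replicates differed by more than counting noise (chi-square over degrees of freedom 3.47 to 16.0). The fit was tested on simulated counts.

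Alternatives were DESeq2 1.42.0, quantile normalization of log2(CPM + 1) with limma 3.58.1, library size alone, upper-quartile scaling, no filter, a minimum of 10 counts in all libraries, rows over 2% of counts left out, the replicate number as a block, and leaving out each library. Named genes were the 3 rows of highest mean CPM in the fibrillar, type IV, transmembrane, FACIT and type VI classes, the highest in each other class, each collagen under 0.05, and in each partner list the 2 highest and those under 0.05. Col5a2, Col5a3, Col7a1, Col11a2, Col15a1, Col20a1, Col27a1, Col28a1 and Col6a6 were added after their values were seen. The members and all lists, markers included, were chosen with earlier results of these data known. Exons came from GENCODE vM21 and promoters from RefSeq (GRCm38.p6). Sums and figures were computed in Python 3.11.15 (pandas 2.3.3, numpy 2.4.6, matplotlib 3.10.9).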

Additional observations from a re-analysis of the deposited data

How the results depend on the processing

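The count of collagens lower on the HFD at an unadjusted p under 0.05 (2) was 1 to 3 with each library left out, and 3 under the replicate block, under quantile normalization with limma and with at least 10 counts in every library, where Col11a2 or Col6a3 was added. Between 22 and 31 collagens were tested in these fits. Of all rows, 272 of 13771 were lower in the main fit, 214 of 13771 under the replicate block and 269 of 13771 under quantile normalization with limma. This was 247 of 12753 with at least 10 counts in every library, 494 of 18936 without a filter and 221 of 13942 to 407 of 14163 with a library left out. Col5a1 was under 0.05 in 12 of 14 alternatives and Col11a1 in 10, with adjusted p between 0.818 and 1 and between 0.839 and 1 (edgeR, DESeq2 or limma). The deviations of same-numbered libraries from their diet means had correlations of -0.039, 0.031 and -0.075. With 3 libraries per diet these cannot show whether the replicate numbers mark shared batches, which was not tested. Partner genes lower (3) were 5 without a filter and 1 to 5 with a library left out, and those higher (0) were 1 under quantile normalization and 0 to 2 with a library left out. The median log2 fold change over a library left out ran from -0.32 to -0.026 for all collagens, -0.41 to -0.026 for fibrillar rows and -0.25 to 0.37 for type IV. The rows that passed the filter changed between these fits. The type IV value of 0.37 was that without HFD replicate 3, where 4 rows were tested and not 2. In that fit Col4a1 was at 0.011 and Col4a2 at 0.18. The fibrillar median was -0.66 without a filter, where 11 rows entered. Col19a1 was at -0.013 with library size alone. With a library left out the log2 fold change ran from -0.41 to 0.43 for Col1a1, -0.087 to 0.45 for Col3a1, -0.19 to 0.035 for Col4a1, -0.62 to 0.18 for Col4a2, -0.25 to 0.10 for Col25a1, -0.47 to 0.033 for Col23a1, -0.041 to 0.084 for Col19a1, -0.16 to 0.089 for Col9a3, -0.28 to 0.20 for Col6a1, -0.19 to 0.15 for Col8a1, -0.36 to 0.018 for Col26a1, -0.11 to 0.054 for Sec23a, -0.17 to 0.046 for Sparc, -0.023 to 0.19 for Dcn and -0.27 to 8.3e-05 for Timp2. The cause of these moves was not tested.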
